A study of Mus musculus with 31 samples.

Results

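Transcripts of the MHC class II antigen presentation machinery were followed in the distal colon of mice in which colorectal tumours were being induced. The genes were chosen by name, as the probes that the array annotation assigns to H2-Aa, H2-Ab1, H2-Eb1, H2-DMa, H2-DMb1, H2-Oa, H2-Ob, Cd74 and Ciita. They are 9 of the 19797 genes tested and 18 of the 56605 probes on the array other than controls. The filter on dim probes kept 17 of these 18 probes, and each of the 9 genes had at least 1 kept probe.

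All mice were BALB/c, 4 to 6 weeks old before the study began, and all received azoxymethane (AOM, a colon carcinogen) by injection and dextran sodium sulphate (DSS, which injures the colon lining) in the drinking water over the first 5 days. Mice of the CRC groups were gavaged with water, and mice of the CRC + E171 groups with 5 mg/kg bw/day of E171, food-grade titanium dioxide. Colons were taken after 2, 7, 14 or 21 days, and 1 array was run per mouse. By this schedule the mice taken after 2 days were still within the 5 days of DSS, and the later mice were past them. Each of the 8 groups held 4 arrays (2 females and 2 males) except CRC 21 days, which held 3 (2 females and 1 male). Both arms carry the chemical injury, so E171 was compared on top of AOM/DSS and no group without AOM/DSS entered. A level here is the log2 signal of a gene minus the log2 of the 75th percentile of its array, so 0 lies at that percentile. Levels are compared between arrays and not between genes, because probes differ in brightness.

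The share of spots well above background ran from 67.4 to 78.9% of an array (median 72.4%). The marker check found genes of other tissues on some arrays. A list's value on an array is the median of its genes, each centred on its mean over the 31 arrays. The squamous epithelium list (Krt5, Krt14 and others) lay above 1 on 5 arrays, at 7.38 on CRC 7 days male 1, 6.34 on CRC 21 days female 1, 3.0 on CRC + E171 21 days female 1, 2.77 on CRC + E171 14 days male 2 and 1.95 on CRC + E171 2 days male 2. The pancreatic acinar list lay above 5 on 5 other arrays, and the neutrophil list above 1 on 3. CRC 14 days male 2 had an Xist level of -1.60, within the range of the females (-2.34 to -0.70) and above that of the other males (-8.51 to -6.53), and sexes are given as labelled.

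MHC class II molecules are pairs of an alpha and a beta chain that hold peptides at the cell surface for CD4+ T cells to read. H2-Aa and H2-Ab1 encode the chains of H2-A, and H2-Eb1 the beta chain of H2-E. Cd74, the invariant chain, blocks the groove and guides new molecules to the endosome, where H2-DM (H2-DMa and H2-DMb1) exchanges the remaining Cd74 fragment for a peptide. H2-DO (H2-Oa and H2-Ob) inhibits H2-DM and is known mainly from B cells. Ciita is the transactivator that class II transcription depends on, and interferon gamma induces it in cells that do not make class II by default. Dendritic cells, B cells and macrophages are the usual sources in the colon, and inflamed epithelium can add to them.

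Probes that carry the values are printed first, since the H2 genes are polymorphic and a probe reads only the stretch it was designed for. Each runs 5′ to 3′, and positions are those of the array annotation (mm9). H2-Aa was read by 1 probe, at chr17:34421285-34421344 on the minus strand. The H2-Ab1 probe shown, at chr17:34404357-34404416, is 1 of 4 for that gene. The H2-Ob probe shown spans chr17:34380481-34380849, 369 bases of genome for 60 bases of probe, so it crosses an exon junction.
H2-Aa: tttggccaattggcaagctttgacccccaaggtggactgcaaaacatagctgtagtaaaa
H2-Ab1: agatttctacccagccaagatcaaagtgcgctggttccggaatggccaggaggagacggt
H2-Ob: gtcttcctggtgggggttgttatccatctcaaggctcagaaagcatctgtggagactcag

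A pair of H2-Ab1 probes overlaps by 51 bases and differs at 1 of them, T20C counted from the first base of the 29-base stretch printed here, with the differing base in capitals.
H2-Ab1 first probe: gattacaaataaacgagacTcagactctg
H2-Ab1 second probe: gattacaaataaacgagacCcagactctg
Despite this difference both gave the same account, with a correlation of 0.997 across arrays. The 6 pairs among the 4 H2-Ab1 probes correlated at 0.969 to 0.997.

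The class II promoters share short elements, the X and Y boxes, that RFX and NF-Y bind and through which they recruit Ciita, so the 90 bases from -110 to -21 of 5 members are shown (RefSeq, GRCm38.p6), those with a motif match there. Of the 8 members searched 6 matched a RefSeq promoter, with 7 promoters in all, and H2-Ab1 and Ciita did not match. Cd74 was not searched. Capitals mark matches on either strand to an X-like motif (CCTNGNNAC, which takes in the stricter CCTAGCAAC) or to the Y-box core ATTGG. The windows are chr17:34287844-34287933 for H2-Aa (minus strand), chr17:34153081-34153170 for H2-DMb1, chr17:34305757-34305846 for H2-Eb1, chr17:34092269-34092358 for H2-Oa and chr17:34238795-34238884 for H2-Ob (plus strand).
H2-Aa: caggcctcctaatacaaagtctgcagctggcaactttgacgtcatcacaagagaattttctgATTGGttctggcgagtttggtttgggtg
H2-Eb1: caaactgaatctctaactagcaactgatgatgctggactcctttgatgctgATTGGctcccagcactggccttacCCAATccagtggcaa
H2-DMb1: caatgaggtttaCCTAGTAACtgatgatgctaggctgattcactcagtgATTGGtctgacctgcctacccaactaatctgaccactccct
H2-Oa: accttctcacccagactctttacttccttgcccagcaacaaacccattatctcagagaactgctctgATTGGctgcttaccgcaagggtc
H2-Ob: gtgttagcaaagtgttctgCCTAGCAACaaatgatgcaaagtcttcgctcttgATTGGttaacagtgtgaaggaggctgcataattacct
ATTGG stood in these 5 windows, at -61 in H2-DMb1, -59 and (on the other strand) -35 in H2-Eb1, -57 in H2-Ob, -48 in H2-Aa and -43 in H2-Oa. H2-DMa, the other member matched, held it at -198, outside this window. Between -110 and -21, 5921 of 32851 mouse promoters hold ATTGG. The X-like motif followed by ATTGG stood in H2-Ob, with 25 bases between them, and in H2-DMb1, with 28. Over all 32851 mouse promoters of the same 300-base length, 37.4% held ATTGG, 15.8% the loose X motif, 0.804% the strict one, and 0.517% the loose X motif and ATTGG at 10 to 40 bases. A match describes the letters of the window and is not a measured site. The search took only these fixed letters, so a window without an X-like match is not shown to lack an X box.

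Class II levels varied widely between mice of the same group. H2-Ab1, a classical beta chain, spanned 3.0 on the log2 scale (8.0-fold) over the 31 arrays. In females 1 and 2 and males 1 and 2 of CRC 2 days its level was 5.88, 5.65, 3.87 and 5.31, and in CRC + E171 2 days it was 5.72, 6.07, 5.02 and 3.07. At 7 days the levels were 5.58, 5.54, 4.01 and 4.59 in CRC and 5.52, 4.26, 5.12 and 5.58 in CRC + E171. In each of these 4 groups 1 mouse set the low end, and the groups of a day overlapped. After 14 days H2-Ab1 stood at 5.21, 4.49, 5.18 and 3.71 in CRC and at 4.27, 4.13, 4.85 and 3.51 in CRC + E171. After 21 days it stood at 3.75, 5.25 and 4.58 in CRC (females 1 and 2, male 1) and at 3.34, 4.51, 4.22 and 4.03 in CRC + E171. The late CRC + E171 mice were the lower ones on average, and again no day separated the arms.

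H2-Aa, its alpha chain partner, spanned 2.91 (7.53-fold). The 2-day levels, in the same order of mice, were 1.82, 2.38, -0.51 and 1.94 in CRC and 1.72, 2.33, 1.03 and -0.18 in CRC + E171. The 7-day levels were 1.66, 1.46, -0.37 and 0.53 in CRC and 2.35, -0.01, 1.48 and 1.59 in CRC + E171. The mouse that was lowest for H2-Ab1 was lowest for H2-Aa in these groups. By 14 days the levels were 0.93, 0.63, 0.96 and 0.17 in CRC and -0.16, 0.28, 0.91 and -0.53 in CRC + E171. By 21 days they were -0.11, 1.02 and 0.75 in CRC and -0.44, 0.30, 0.06 and -0.28 in CRC + E171. No mouse sampled at 14 or 21 days passed 1.02, a level that both females of each 2-day group exceeded.

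H2-Eb1 spanned 2.74 (6.69-fold) and Cd74 2.91 (7.49-fold). The Cd74 mean was 5.76 ± 0.77 (SD, n = 4) in CRC 2 days and 4.65 ± 0.35 (SD, n = 4) in CRC + E171 21 days, its highest and lowest groups. H2-Eb1 was highest in CRC + E171 7 days (5.91 ± 0.51, SD, n = 4) and lowest in CRC + E171 14 days (5.09 ± 0.58, SD, n = 4). H2-DMa, the alpha chain of the peptide exchanger, spanned 3.12 (8.68-fold), with means from 1.78 ± 1.11 (SD, n = 4) in CRC 2 days to 0.50 ± 0.59 (SD, n = 4) in CRC + E171 21 days.

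Both chains of H2-DO varied more. H2-Oa spanned 5.27 (38.5-fold), and H2-Ob spanned 4.15 as the mean of 2 probes and 3.87 by the probe well above background on all arrays. H2-DMb1, the beta chain of the exchanger, spanned 4.09 as the mean of 2 probes, of which 1 was dim on 14 arrays, and 3.33 by the probe well above background on all 31. The values by 1 probe alone were also chosen after seeing the data. H2-Oa stood at 0.45, 0.34, -2.91 and -0.28 in CRC 2 days and at -0.73, 0.09, -1.03 and -3.54 in CRC + E171 2 days. Both groups of 7 days reached from a low to a high mouse, with -0.94, -0.14, -3.53 and 0.93 in CRC and -0.01, -1.93, -1.99 and 1.07 in CRC + E171. At 14 days CRC held 0.95, -1.52, 0.75 and -1.26 and CRC + E171 -1.49, -1.98, -0.83 and -2.19. At 21 days the CRC females lay at opposite ends of the whole series, -4.14 and 1.13, with the male at -0.85, while CRC + E171 held -3.05, -1.85, -2.25 and -1.37. The arms overlapped at every day, and the range inside every CRC group was wider than the step between the arms of its day.

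At 14 days the mean of both H2-DMb1 probes was -0.17, -1.99, -0.49 and -1.06 in CRC and -2.44, -3.24, -1.37 and -3.15 in CRC + E171. All but 1 of the CRC + E171 mice lay below all of the CRC mice, and male 1 of CRC + E171, at -1.37, lay above female 2 of CRC. By the probe well above background on all arrays the levels were 3.32, 2.19, 3.18 and 1.83 in CRC and 1.99, 1.78, 2.72 and 1.44 in CRC + E171, so the step was smaller and the arms overlapped more.

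Ciita, the transactivator, spanned 3.24 as the mean of 4 probes, of which 1 was well above background on 13 arrays. By the other 3 it spanned 3.82 (14.1-fold). As the mean of 4 its levels were -0.77, -0.40, -2.50 and -0.90 in CRC 2 days and -0.53, -0.40, -1.44 and -3.20 in CRC + E171 2 days. After 7 days they were -1.41, -0.82, -3.64 and -1.48 in CRC and -1.11, -1.91, -2.19 and -0.67 in CRC + E171. In both CRC groups the lowest mouse, male 1, was also lowest for H2-Ab1 and H2-Oa. After 14 days Ciita stood at -1.09, -2.29, -1.04 and -2.62 in CRC and at -2.53, -2.26, -1.96 and -3.25 in CRC + E171. After 21 days it stood at -2.82, -1.41 and -2.28 in CRC and at -3.58, -2.66, -2.57 and -2.05 in CRC + E171. At 21 days no mouse of either arm reached the level that both females of each 2-day group had.

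**Figure D1:**
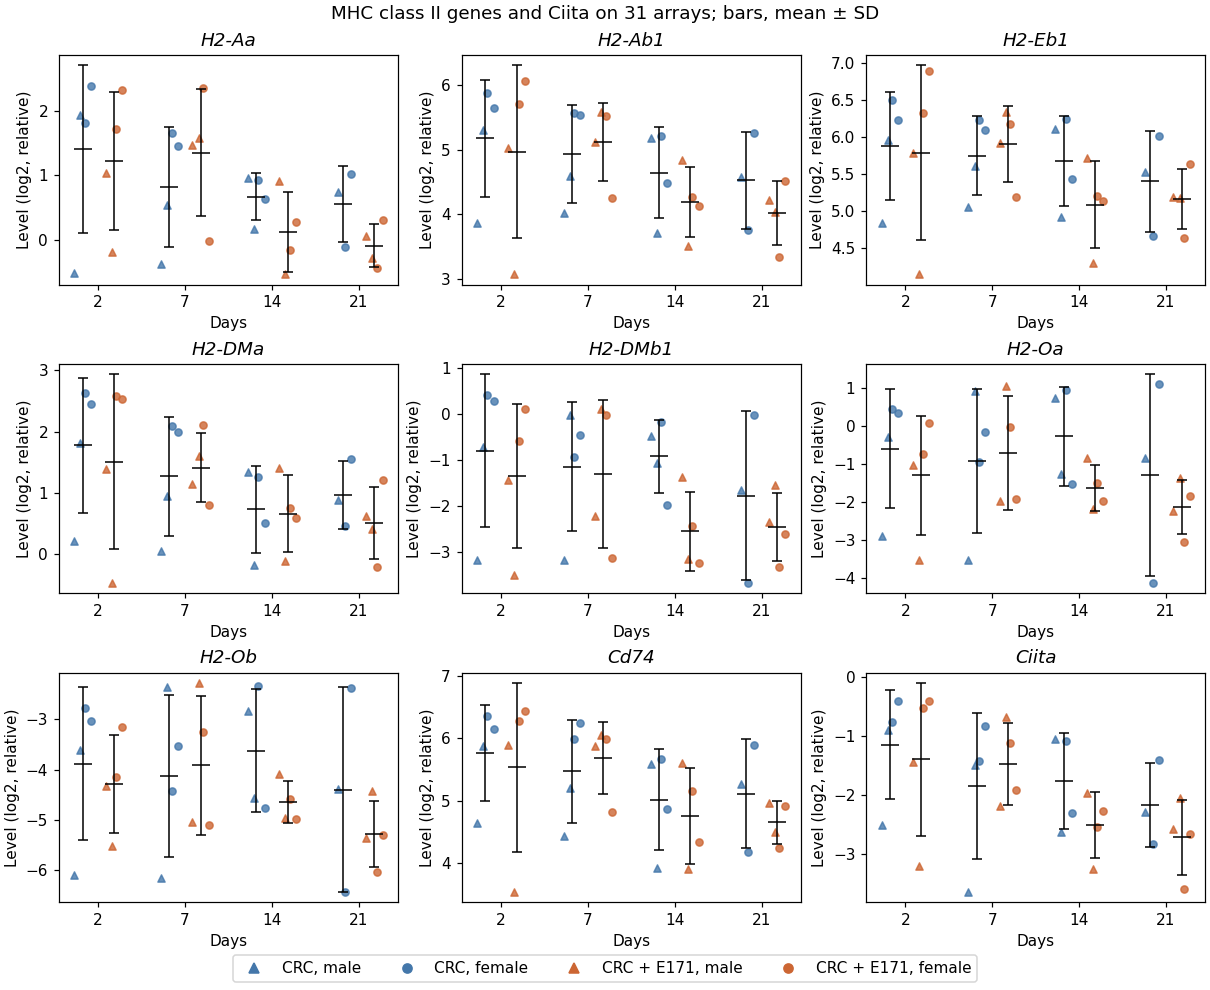
Levels of the 9 genes on each of the 31 arrays, as log2 signal relative to the array's 75th percentile, by day and treatment, with sex by marker and the mean ± SD of each group. The groups of a day overlap in every panel, and H2-DMb1, H2-Oa and H2-Ob spread over 4.09 to 5.27 log2 units, with H2-DMb1 and H2-Ob drawn as the mean of 2 probes each.

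The same mice were low for most genes. All 9 genes were at their group's lowest level on CRC 2 days male 1, CRC 7 days male 1, CRC 21 days female 1, CRC + E171 2 days male 2 and CRC + E171 21 days female 1. In the other groups 6 or 7 of the 9 genes shared the lowest mouse. CRC 21 days female 2 and CRC + E171 14 days male 1 were the highest of their group for all 9. The residual SD within groups was 0.69 for H2-Eb1, 0.81 to 0.90 for H2-Ab1, Cd74, H2-Aa, H2-DMa and Ciita, and 1.28, 1.34 and 1.54 for H2-Ob, H2-DMb1 and H2-Oa (1.15, 0.94 and 1.07 for the probes of H2-Ob, H2-DMb1 and Ciita that were well above background on all arrays), against a median of 0.44 over 19741 genes. On a scale of percentiles of all genes the first 6 stood at 76.0 to 86.7 and the last 3 at 95.1 to 97.3. These percentiles use the means of all kept probes. By the probes well above background on all arrays, H2-DMb1 (0.94) lay below Ciita (1.07), so its place among the last 3 rests on its dim probe.

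Of the 5 arrays that were lowest for all 9 genes, 4 were among the 5 arrays high in squamous genes, and the fifth of those, CRC + E171 14 days male 2, was lowest for 7 genes. CRC 7 days male 1 also had the lowest colon epithelium list, at -4.92, and a neutrophil list at 3.59. The part of these tissue markers in the class II levels was not tested. In a whole tissue, fewer cells that carry a gene and less RNA of it per cell cannot be told apart.

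E171 was then compared with CRC at each day, the comparison for which the groups were set up. No class II gene passed the threshold (a fold change of 1.5 or more and an unadjusted p under 0.05 in limma) in either direction at any day, where 1.72% of all genes passed at 2 days, 12.4% at 7, 6.34% at 14 and 2.67% at 21. The median difference of the 9 genes (CRC + E171 minus CRC, log2) was -0.25 at 2 days, 0.21 at 7, -0.59 at 14 and -0.55 at 21 days, beside 0.06, -0.01, 0.01 and 0.02 over all genes. All 9 differences lay below 0 at 2, 14 and 21 days, and all but that of H2-DMb1 lay above 0 at 7 days. Because the 9 genes moved together from mouse to mouse, these signs are not 9 separate observations.

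For the classical chains the differences at 2, 7, 14 and 21 days were -0.21, 0.19, -0.46 and -0.50 for H2-Ab1, with SE of 0.55 to 0.59. For H2-Aa they were -0.18, 0.53, -0.55 and -0.64 (SE 0.58 to 0.63), and for H2-Eb1 -0.09, 0.16, -0.59 and -0.24 (SE 0.47 to 0.51). Each of these lay within 2 SE of 0. Cd74, the chaperone of all of them, differed by -0.22, 0.21, -0.26 and -0.46 (SE 0.57 to 0.61).

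In the peptide exchange step H2-DMa differed by -0.27, 0.14, -0.08 and -0.46 (SE 0.60 to 0.65). H2-DMb1 differed by -0.56, -0.17, -1.62 and -0.68 (SE 0.91 to 0.98). Its 14-day value, a mean of -2.55 ± 0.86 in CRC + E171 against -0.93 ± 0.80 in CRC (SD, n = 4 each), had a 95% interval of -3.50 to 0.25, an unadjusted p of 0.0870 and an adjusted p of 0.672 in limma, with an exact two-sided permutation p of 0.0571. By the brighter of its 2 probes alone this value was -0.65. H2-DO differed by -0.70, 0.21, -1.36 and -0.84 for H2-Oa (SE 1.04 to 1.12) and -0.40, 0.21, -1.02 and -0.88 for H2-Ob as the mean of 2 probes (SE 0.87 to 0.94). By the H2-Ob probe well above background on all arrays the values were -0.57, 0.06, -0.91 and -0.86. Ciita, as the mean of 4 probes of which 1 was dim, differed by -0.25, 0.37, -0.74 and -0.55 (SE 0.61 to 0.66). By its 3 probes well above background on all arrays it differed by -0.68, 0.60, -0.49 and -0.96 (SE 0.72 to 0.78), with an unadjusted p of 0.233 or more in limma.

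The design leaves room for sizeable changes in either direction. Over the 36 comparisons the 95% intervals reached from -3.50 to 2.35, and SE lay between 0.47 and 1.12, against a median of 0.31 for all genes at 2 days and 0.33 at 21. Adjusted p-values in limma were 0.999 at 2 days and 0.688, 0.672 and 0.933 or more at 7, 14 and 21 days. With an adjusted p under 0.05 as the threshold 0% of all genes passed at any day, while 541, 3327, 1580 and 1149 genes had an unadjusted p under 0.05. Exact two-sided permutation p-values ran from 0.0571 to 1 (0.908 or more when adjusted over the 36), where 4 arrays against 4 cannot go below 0.0286 and 4 against 3 not below 0.0571. The arms overlapped for all 9 genes at all 4 days, while they did not overlap for 3.9%, 4.85%, 5.9% and 8.02% of all genes at 2, 7, 14 and 21 days.

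**Figure D2:**
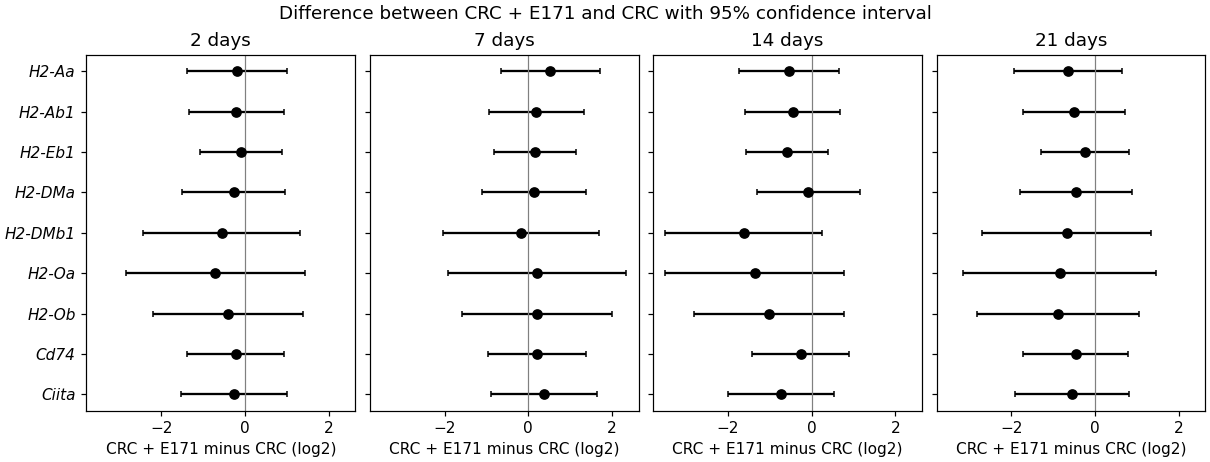
Difference between CRC + E171 and CRC (log2) for each of the 9 genes at 2, 7, 14 and 21 days, as points with 95% intervals from the limma fit over all 8 groups. Every interval includes 0, and the lowest point is H2-DMb1 at 14 days (-1.62 as the mean of 2 probes).

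Single mice set the direction at 2 and 7 days. The 2-day median of -0.25 became 0.35 without CRC + E171 2 days male 2 and -0.80 without CRC 2 days male 1. The 7-day median of 0.21 became -0.23 without CRC 7 days male 1, and the 21-day median of -0.55 became -0.07 without CRC 21 days female 2 and -0.93 without CRC 21 days female 1. At 14 days it stayed between -0.84 and -0.33 whichever array was left out.

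Leaving out the 5 arrays high in squamous genes, a check chosen after seeing the data, gave differences of 0.01 to 0.45 at 2 days, -0.85 to 0.13 at 7, -1.42 to 0.18 at 14 and -1.96 to -0.44 at 21 days. The 2-day sign turned for all 9 genes, and no gene passed the threshold on any day. Without the 3 arrays high in neutrophil genes the 7-day differences were -0.64 to 0.07. Without the 5 high in acinar genes they were 0.33 to 1.12, above 0 for all 9, and the 2-day differences were -1.06 to -0.37. At 7 days all 13 genes of the colon epithelium list passed the threshold upwards in CRC + E171, where 12.4% of all genes passed in either direction. The list lay between -4.92 and 0.34 on the CRC arrays of that day, with CRC 7 days male 1 lowest. Among its genes Car1 rose by 4.16, Aqp8 by 3.78 and Muc2 by 3.27 (adjusted p 0.197 to 0.297 in limma over the 13).

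No slide held both arms of 1 day, but each held CRC arrays of 1 day and CRC + E171 arrays of another, so the effect averaged over paired days can be taken within slides. With slide as a term the mean effect over all 4 days was -0.17 for H2-DMa, -0.19 for Cd74 and H2-Aa, -0.20 for H2-Eb1, -0.25 for H2-Ab1, -0.32 for Ciita, -0.59 for H2-Ob, -0.75 for H2-Oa and -0.79 (SE 0.47) for H2-DMb1. All 9 lay below 0, none passed the threshold (1.8% of all genes did), and limma's unadjusted p ran from 0.106 to 0.587. The values of H2-DMb1, H2-Ob and Ciita are means of probes that take in 1 dim probe each. Over 2 and 14 days the effects were -1.09 to -0.17 and over 7 and 21 days -0.49 to -0.02, with none past the threshold, which 2.26% and 4.47% of all genes passed. After adjustment 0% of all genes passed in these 3 fits. Over 7 and 21 days no gene passed whichever array was left out, and the median of the 9, -0.17, became 0.13 without CRC 21 days female 2 and -0.37 without CRC 7 days male 1. Over 2 and 14 days the median, -0.36, became -0.13 without CRC + E171 2 days male 2 and -0.70 without CRC 2 days male 1. Over all 4 days the median, -0.25, became -0.10 without CRC 21 days female 2 and -0.41 without CRC + E171 2 days female 2. The counts of 0 in the latter 2 fits rested on single arrays. Without CRC 2 days male 1, 3 genes passed over all 4 days and also over 2 and 14 days. Without CRC + E171 2 days female 2, 2 genes passed over all 4 days and 4 over 2 and 14 days. Over all 4 days 2 genes passed without CRC 21 days female 1 and 1 without CRC + E171 7 days female 1.

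The days were compared next, with group as the only term. Arrays of 2 days shared no slide with arrays of 7 or 21 days. Differences between those days, here and in the F tests and lists below, thus also lie between slides. The 2-day mice were also taken while DSS was being given. The parts of slide and of DSS in the day differences were not tested. Of the 9 genes 6 had their highest mean in CRC 2 days (H2-Aa, H2-Ab1, H2-DMa, H2-DMb1, Cd74 and Ciita), and 7 had their lowest in CRC + E171 21 days. H2-Oa and H2-Ob were highest in CRC 14 days and H2-Eb1 in CRC + E171 7 days, and H2-Eb1 and H2-DMb1 were lowest in CRC + E171 14 days. The ends, which were picked by their means and so are not tested, were 0.82 (H2-Eb1) to 1.86 (H2-Oa) apart and overlapped for all 9 genes. Between neighbours in the order of the 8 group means, 63 pairs in all, every pair overlapped. Neighbours were picked for close means, and no share over all genes is given for them or for the ends. Neither overlap therefore sets the 9 genes apart from other genes.

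H2-Aa and Ciita were lower at 21 days than at 2 days over both treatments. H2-Aa fell by 1.08 (SE 0.43), from a mean of 1.32 to 0.23, with an unadjusted p of 0.0177 and an adjusted p of 0.235 in limma. Ciita fell by 1.18 (SE 0.45), from -1.27 to -2.44, with p of 0.0155 and 0.224. By its 3 probes on all arrays Ciita fell by 1.23 (SE 0.53, p 0.0298 and 0.286). The differences of the other 7 genes ran from -1.04 to -0.55 and did not pass. Thus 2 of the 9 genes passed the threshold downwards, where 3.82% of all genes did, and none had an adjusted p under 0.05, where 0.374% did.

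The count of 2 rested on a few arrays. It was 7 without CRC 2 days male 1 and also without CRC + E171 2 days male 2, 6 without CRC 21 days female 2, 4 without CRC + E171 21 days female 2, 1 without CRC 21 days female 1, 5 without the arrays high in squamous genes and 0 without those high in acinar genes. At 14 days H2-Aa (-0.92, SE 0.41, unadjusted p 0.0341) and H2-DMa (-0.95, SE 0.43, p 0.0352) passed against 2 days in limma, where 2.85% of all genes passed downwards. At 7 days none passed, where 2.88% did, and the differences were -0.39 to 0.13.

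An F test over the 4 days did not pass for Ciita (p 0.0689 over both treatments, and 0.127 by its 3 probes on all arrays). Over both treatments only H2-Aa had an unadjusted p under 0.05 (p 0.0443, adjusted 0.335, limma), where 14.5% of all genes did and 0.096% passed after adjustment. Within CRC + E171 only H2-Aa did (p 0.0380, adjusted 0.315; 14.6% of all genes, 0% adjusted), with Ciita at 0.0833. Without CRC + E171 2 days male 2 both counts of 1 became 6, and without CRC + E171 21 days male 1 both became 0. The count over both treatments changed in 25 of 31 such fits, so it rests on single arrays. Within CRC none did (p 0.367 to 0.858; 9.89% of all genes, 0% adjusted). The E171 effect itself did not differ between days for any of the 9 (p 0.497 to 0.914; 6.52% of all genes, 0% adjusted).

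Other lists were read by the same F test. Over both treatments 19 of 23 genes of the interferon gamma pathway list (Irf1, Gbp2, Cxcl9 and others) had an unadjusted p under 0.05, as did 11 of 14 genes of MHC class I presentation, 5 of 16 genes of class II transcription and 2 of 11 genes of class II antigen processing, where 14.5% of all genes did, and none had an adjusted p under 0.05. Their median differences between 21 and 2 days were -1.36, -0.75, -0.27 and -0.05, beside -0.80 for the 9 class II genes and -0.04 for all genes. The lists share some genes, such as Irf1, Tap1 and Psmb8. Of the co-stimulation list 3 of 8 genes had an unadjusted p under 0.05, with a median of -0.64, and of the colon epithelium list 2 of 13, with -0.09. The same median differences were -0.79 for B cells, -1.04 for T cells, -1.02 for the other class II chains, -0.68 for dendritic cells and -0.17 for macrophages, with 0 of 12, 1 of 12, 0 of 3, 2 of 11 and 0 of 13 genes at an unadjusted p under 0.05. They were 1.31 for squamous epithelium (1 of 9), -1.54 for acinar cells (0 of 9) and -0.50 for neutrophils (1 of 8), and the part of these cells in the class II difference was not tested.

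All 9 genes were higher in females than in males once group was a term, by 0.27 (H2-Ob) to 0.74 (H2-DMa). H2-DMa passed the threshold, with means of 1.46 and 0.73 (SE 0.28, unadjusted p 0.0125, adjusted p 0.420 in limma), where 2.98% of all genes passed and 0.0556% after adjustment. Without CRC 14 days male 2 its difference was 0.69 (p 0.0223). No gene passed without the arrays high in acinar genes or without those high in neutrophil genes. Without CRC + E171 21 days female 1, CRC + E171 14 days male 1 or CRC + E171 7 days female 2, 3 genes passed in each case, and 2 passed without each of 4 other arrays.

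At 7 days the E171 difference had opposite signs in the sexes for all 9 genes, from -0.88 to -0.19 in females and from 0.53 to 1.45 in males. Without CRC 7 days male 1, the array highest in squamous genes, the male sign turned for 3 genes, H2-DMb1 (-1.04), H2-Oa (-1.38) and H2-Ob (-1.30). For the other 6 it stayed above 0, at 0.05 for Ciita, 0.42 for H2-DMa, 0.52 for H2-Eb1, 0.75 for Cd74, 0.76 for H2-Ab1 and 0.998 for H2-Aa. This check, chosen after seeing the data, leaves 1 CRC male. The difference between sexes was -1.86 for Cd74, -1.84 for H2-Aa and -1.71 for H2-Ab1, and its unadjusted p in limma ran from 0.101 to 0.684 over the 9, so none passed, where 18.2% of all genes had p under 0.05. With 2 mice per sex and arm this contrast had SE of 0.87 to 2.29. At 2, 14 and 21 days the smallest p was 0.445, 0.644 and 0.459, where 0.248%, 8.18% and 1.21% of all genes passed.

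Around the class II molecules themselves, the other genes of the pathway were read at each day by the same threshold. Of the other class II chains H2-Ea, H2-Eb2 and H2-DMb2 none passed, with H2-DMb2, a second DM beta chain, at -0.70, 0.31, -1.04 and -1.10 over the 4 days. Of 11 genes that process antigen or class II itself, Sppl2a, which clears the last Cd74 fragment, rose by 0.96 at 7 days and Marchf1, a ubiquitin ligase that removes class II from the surface, rose by 1.30. Ctsl, a cathepsin that trims Cd74, fell by 0.83 at 7 days. None of the 11 passed at the other days, when the median of the list lay between -0.01 and 0.06.

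Among 16 regulators of class II transcription (Rfx5, Rfxap, Rfxank, the NF-Y subunits and others) Irf1 rose by 0.93 and Ep300, a coactivator, by 0.75, both at 7 days, and none passed otherwise. The 7-day median of that list was 0.33. These 7-day counts, 3 of 11 and 2 of 16, stand beside the 12.4% of all genes that passed at 7 days, and the adjusted p of each was 0.197 or more in limma. In the class I pathway Tap1, a subunit of the peptide transporter, fell by 1.43 and Erap1, which trims peptides, by 0.66 at 21 days (adjusted p 0.854), 2 of 14 genes where 2.67% of all genes passed.

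Markers of the cells that carry class II were read beside the 12.4%, 6.34% and 2.67% of all genes that passed at 7, 14 and 21 days. Of 12 B cell genes Cd22 fell by 1.01 at 21 days, and the list's median was -0.67, 0.34, -1.28 and -0.87 at 2, 7, 14 and 21 days. Of 11 dendritic cell genes Xcr1 rose by 2.16 and Clec9a by 1.23 at 7 days, both of the cross-presenting type, and Cd209a fell by 0.66 at 14 days. Of 13 macrophage genes 1 rose and 5 fell at 7 days. Cx3cr1 rose by 1.10, Cd163 fell by 1.89 and Mrc1 fell by 1.09. At 14 days Cd163 rose by 1.35 and C1qc fell by 0.70. Of 12 T cell genes Cd247 fell by 1.32 at 21 days, and of 8 co-stimulation genes Tnfsf9 fell by 1.20 at 7 days.

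At 2, 7, 14 and 21 days the list medians were -0.59, 0.05, -0.49 and -1.14 for T cells, -0.27, 0.38, -0.41 and -0.33 for dendritic cells and -0.37, -0.23, -0.57 and -0.75 for co-stimulation. They come from the same arrays as the class II values and are set beside them without a test. Genes of other cells that passed were Cnn1 of smooth muscle (-0.78 at 14 days), Retnlg (-2.40), Camp (-2.09) and Mpo (-0.72) of 8 neutrophil genes at 7 days, Ly6g (-3.03) at 14 and Elane (-1.18) at 21 days, and Cpa1, Prss2 and Cel (-6.42 to -4.79) of 9 acinar genes at 7 days. No gene of the lists for squamous epithelium or lymphoid tissue stroma passed, and no gene of any of these lists had an adjusted p under 0.05 in limma.

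Within groups, the 9 genes moved together from mouse to mouse. Correlations of deviations from the group means over the 31 arrays ran from 0.69 to 0.99 over the 36 pairs. H2-Aa, H2-Ab1, H2-Eb1, H2-DMa and Cd74 correlated with each other at 0.863 to 0.99 (10 pairs), and H2-DMb1, H2-Oa and H2-Ob at 0.94 to 0.981 (3 pairs). Between these sets it was 0.69 to 0.842 (15 pairs). The place of H2-DMb1 depended on the probe. Its probe well above background on all arrays correlated at 0.968 with H2-DMa, its partner in the H2-DM dimer, at 0.972 with H2-Ab1, and at 0.848 and 0.797 with H2-Oa and H2-Ob. The dim probe correlated at 0.676 with H2-DMa, 0.71 with H2-Ab1, 0.933 with H2-Oa, 0.943 with H2-Ob and 0.959 with H2-DMb2, a close paralogue. Whether that probe also reads H2-DMb2 was not tested. All values of an array share its RNA and its scaling, and these coefficients are a description.

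Ciita was set against each of the other 8 genes. Over the levels of the 31 arrays Pearson's r was 0.826 (H2-Ob) to 0.916 (H2-Ab1) and Spearman's rho 0.833 to 0.925. Each had a permutation p of 1e-05, the smallest that 100000 permutations can give and also the value after adjustment over the 8. Genes of an array share its RNA and scaling, so a small p here does not set Ciita apart from other genes. The share of all genes that reach such r is not given. Without the 2 arrays farthest from the Ciita median, CRC 7 days male 1 and CRC + E171 21 days female 1, r was 0.789 to 0.923. By scan day r was 0.871 to 0.966 (12 arrays), 0.681 to 0.943 (12) and 0.791 to 0.977 (7). On deviations from the group means it was 0.823 to 0.905, and lowest within the scan days for H2-Ob on the second (0.532). With Ciita from its 3 probes on all arrays r was 0.785 to 0.923 over levels and 0.791 to 0.919 over deviations.

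**Figure D3:**
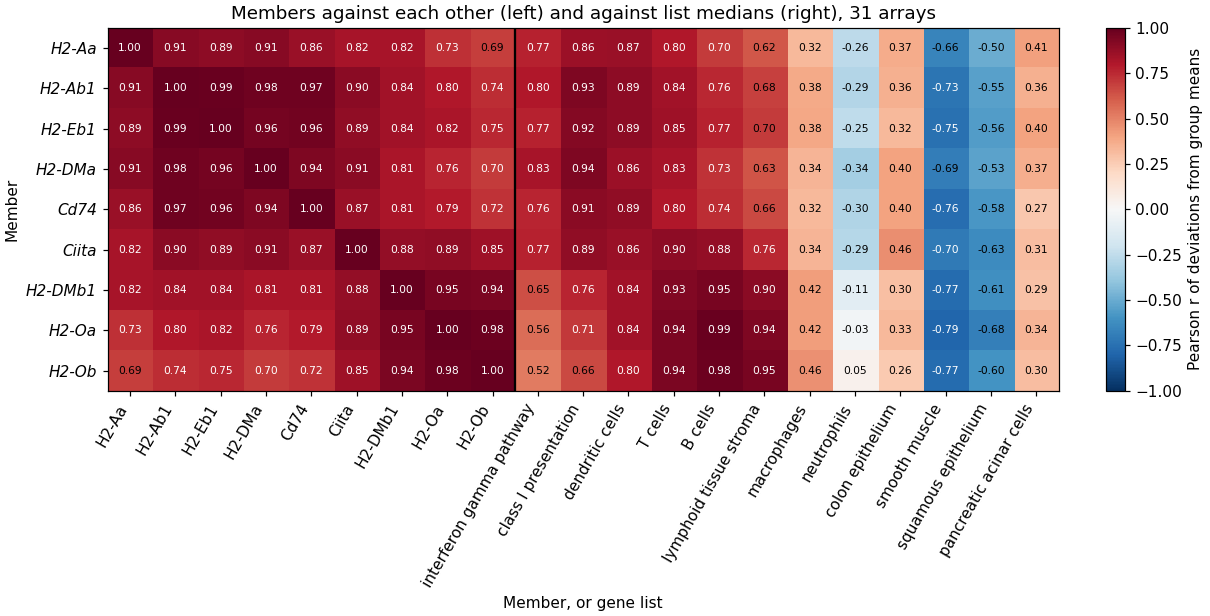
Pearson correlations over the 31 arrays of deviations from group means, for each of the 9 genes with the others and with gene lists. H2-Oa and H2-Ob stand at 0.99 and 0.98 with the B cell list and H2-Aa, H2-Ab1, H2-Eb1, H2-DMa and Cd74 at 0.701 to 0.766. H2-DMb1, drawn as the mean of its probes, stands at 0.947, and at 0.814 by its brighter probe alone.

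Genes and marker lists were then related in 39 tests chosen after seeing the data, on deviations from group means with permutations inside groups, and p-values were adjusted over the 39. Of these, 3 on differences between genes are not given, since the relations of the single genes fix their direction. Genes and lists share the RNA and scaling of each array, so a small p here does not set a list apart from other genes. The B cell list (Ms4a1, Cd79a and others) tracked H2-Oa at r = 0.99 (rho 0.982), H2-Ob at 0.98 (rho 0.986) and H2-DMb1 at 0.947 (rho 0.937), each with an adjusted permutation p of 3.9e-05. By its brighter probe alone H2-DMb1 stood at 0.814. With the 2 arrays farthest from the list's median left out, CRC 21 days female 1 and CRC 7 days male 1, these were 0.986, 0.977 and 0.939. Across the 3 scan days they held between 0.927 and 0.994. Ciita followed at 0.878 and the other 5 genes at 0.701 to 0.766, but on the second scan day those 5 had r of only 0.214 to 0.396.

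Dendritic cell genes (Flt3, Zbtb46, Xcr1 and others) tracked all 9 class II genes, at 0.801 to 0.892 (adjusted permutation p 0.000182 or less), and on the second scan day at 0.397 to 0.771. The interferon gamma list gave 0.76 to 0.826 for the 5 genes around H2-A, 0.77 for Ciita and 0.522 to 0.645 for H2-DMb1, H2-Oa and H2-Ob (adjusted permutation p 0.00359 or less). The brighter H2-DMb1 probe gave 0.831. Among the lists tested, macrophage genes gave the weakest relation, 0.321 to 0.458. Its adjusted permutation p was 0.0837 to 0.151 for H2-Aa, H2-Ab1, H2-Eb1, H2-DMa, Cd74 and Ciita and 0.0203 to 0.0414 for H2-DMb1, H2-Oa and H2-Ob. It was negative for the first 6 on the second scan day while lying at 0.842 or above on the third.

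Other lists were compared without a test, and not all moved with the 9 genes. The class II antigen processing list stood at -0.264 to 0.119 with them, neutrophils at -0.337 to 0.046, colon epithelium at 0.263 to 0.462, acinar cells at 0.27 to 0.413 and class II transcription at 0.408 to 0.621. T cell genes correlated at 0.80 to 0.942 with the 9 genes, and the lymphoid tissue list (Cxcl13, Ccl19, Ltb and others) at 0.937 and 0.952 with H2-Oa and H2-Ob against 0.618 to 0.70 with the 5 genes around H2-A. The class I presentation list had the opposite order, 0.856 to 0.937 with those 5 and 0.709 and 0.657 with H2-Oa and H2-Ob. The brighter H2-DMb1 probe stood at 0.744 with the lymphoid tissue list and 0.924 with the class I list. Smooth muscle genes ran the other way in all 9 (-0.792 to -0.66), as did squamous genes (-0.681 to -0.498).

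**Figure D4:**
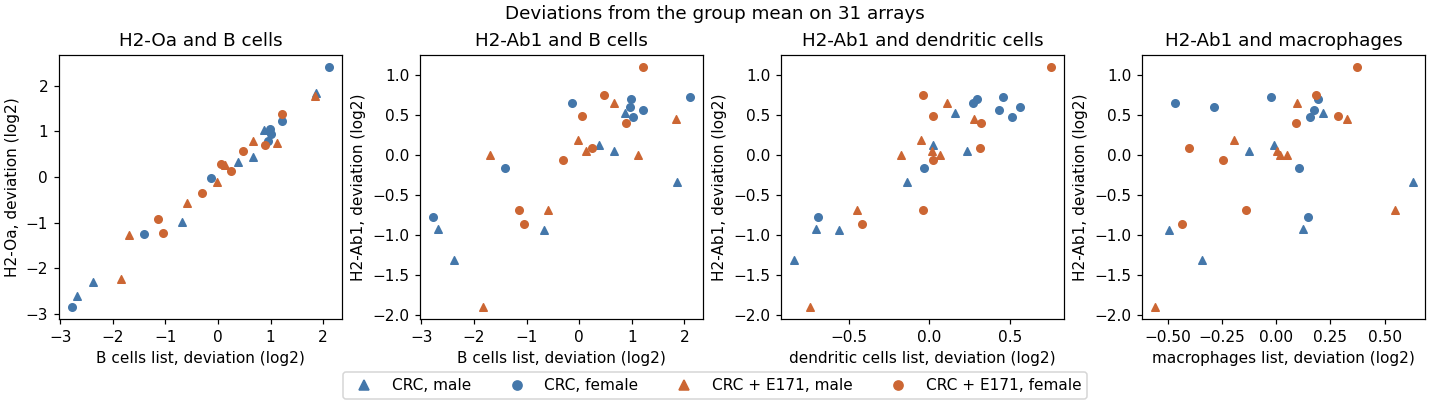
Deviations from group means on the 31 arrays (log2), with H2-Oa against the B cell list and H2-Ab1 against the lists of B cells, dendritic cells and macrophages. The points lie near a line for H2-Oa and B cells (r = 0.99) and are scattered for H2-Ab1 and macrophages (r = 0.378).

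Genes other than the 9 with the most similar pattern were sought over all genes and 31 arrays by Pearson's r of levels. The mean of the 9 genes was most like Ms4a4b (0.96), Cxcr3 (0.957), Dnase1l3 (0.956), Gimap7 (0.952) and Cd8b1 (0.949), and the rest of the first 10 were Sh2d1a, Cd6, Skap1, Pglyrp2 and Cd3d (0.941 to 0.946). Taken singly, H2-Oa was most like Fcmr, Fcrla and Tspan32 (Fcrla 0.983), and H2-Ob like Tspan32 (0.983), H2-DMb2 and Arhgap4. H2-DMb1, as the mean of its probes, was most like Cd52 (0.952), Cd2 and Arhgap4, and Ciita like Tbx21 (0.922), Skap1 and Ms4a4b. H2-Ab1 and Cd74 were most like B2m (0.936 and 0.929), the light chain of class I, while H2-Eb1 and H2-DMa were most like Nkg7 (0.918 and 0.958) and H2-Aa like Cxcr3 (0.896).

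Several genes were read by more than 1 probe, and the probes did not always give the same size. H2-DMb1 had a probe well above background on all 31 arrays (chr17:34297109-34297168, mm9) and another that was so on 17 (chr17:34290109-34290168). At 2, 7, 14 and 21 days the second was so on 3, 3, 3 and 1 of the CRC arrays and on 3, 2, 1 and 1 of the CRC + E171 arrays. Their middle 30 bases show separate stretches of the locus.
H2-DMb1 probe on 31 arrays: caccgtgtcttaggtgatcactaagaaata
H2-DMb1 probe on 17 arrays: caggatttggttgagttactgggtacaagt
The first gave E171 differences of -0.44, -0.07, -0.65 and -0.43 at 2, 7, 14 and 21 days (unadjusted p at 14 days 0.321 in limma). The measured difference of the second at 14 days was -2.60, but with 1 of 4 CRC + E171 arrays well above background its size is not known. The mean of both, -1.62, takes in this probe. The probes correlated at 0.777.

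Ciita had 4 probes, of which 3 were well above background on all arrays and correlated at 0.912 to 0.98. The fourth (chr16:10512788-10512847, mm9) was so on 13 arrays and correlated with the others at 0.273 to 0.366. Its middle 30 bases are set here beside those of a probe that was read on all arrays (chr16:10526458-10526517).
Ciita probe on 31 arrays: accttcacggtcactacacttaaaatgcat
Ciita probe on 13 arrays: ctttgaattcaggcagcagagccatcttcc
The 3 concordant probes differed by -0.77 to -0.53 at 2 days, 0.55 to 0.65 at 7, -0.63 to -0.33 at 14 and -1.02 to -0.87 at 21 days. At 2, 7 and 21 days the fourth was well above background on 2, 2 and 1 of the CRC arrays and on 3, 2 and 1 of the CRC + E171 arrays, so no difference is given for it there. In CRC + E171 14 days it was not well above background on any of 4 arrays and in CRC 14 days it was so on 2 of 4, with measured means of -7.49 and -6.00. No fold is given, since neither mean rests on measured spots alone. In a fit of single probes it was the only 1 of the 17 kept probes to pass the threshold at any day, and that pass at 14 days rests on these spots.

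H2-Ob had 2 kept probes, which correlated at 0.959 and gave -1.13 and -0.91 at 14 days. Its other probe was well above background on 1 array of 31 and was left out by the filter. The 4 H2-Ab1 probes gave -0.67 to -0.36 at 14 days, and the probe at -0.67 lacked CRC + E171 14 days male 1, where its spot was left out as an outlier.

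**Figure D5:**
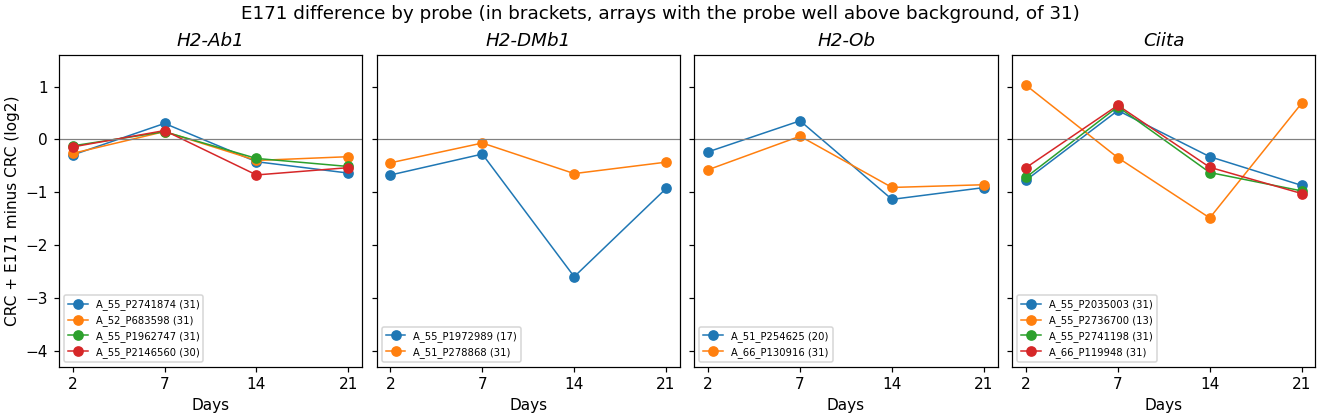
E171 difference (log2, CRC + E171 minus CRC) by probe and day for the 4 genes with several probes. H2-Ab1 and H2-Ob probes lie close together, while 1 H2-DMb1 probe is drawn at -2.60 at 14 days beside -0.65 for the other. That probe and the fourth Ciita probe were well above background on 17 and 13 of 31 arrays, so the size and sign of their points are not read.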

How the data were processed

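RNA from the distal colon of 31 mice was labelled with Cy3 and hybridised to 1-colour Agilent mouse arrays. The deposited scanner files hold spot intensities from Feature Extraction 10.7.3.1, with probe positions on mm9. The deposited value table holds log2 values of the same arrays after the authors removed flagged and dim spots, imputed missing values and merged spots. Its normalization is not given in the sources used here, and it served as an alternative. The submitters' processing notes name limma.

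The main values were log2 processed signals minus each array's 75th percentile. Outlier spots were left out. Probes were kept if well above background on 60% of the arrays of at least 1 group and at a mean log2 signal of 4 or more, and probes of a gene were averaged. RefSeq genes were found for 34344 of the 42787 kept probes (26942 through accessions, 7017 through symbols, 368 through synonyms and the 17 probes of the 9 genes through the array's gene names). limma 3.58.1 (R 4.3.3) was fitted over the 8 groups, with Benjamini-Hochberg adjustment over 19797 genes. A gene passed with a fold change of 1.5 and an unadjusted p under 0.05. Groups came from the labels, and limma p-values set a difference against the spread between mice. The arms of a day lay on different slides, so a daily E171 difference also lies between slides. The number of arrays limits the precision. The limma and correlation steps were tested on simulated data.

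The members and the gene lists were chosen with earlier results of these data known. By rule, the text names all 9 genes, up to 4 passing genes per list and day, and the 10 genes most like the mean of the 9 and 3 most like each, except a gene that is not reported here. Alternatives changed the scaling, background correction, filter, probe choice, covariates, weights, call rule and arrays.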

Additional observations from a re-analysis of the deposited data

Results flagged for a closer look

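Cd74 in CRC + E171 7 days female 2 stood at 4.82, apart from the other 3 mice of its group, of which the nearest was at 5.88, and this gap took a share of 0.864 of the group's range. It was the 1 case among 63 combinations of gene and group with 4 arrays in which a mouse stood apart by Dixon's criterion, which chance meets in about 1 in 20 such groups.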

How the results depend on the processing

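Across 1692 values of single genes and days under alternatives, 1690 stayed below the threshold. As no value passed as reported, no call could turn, and with SE of 0.47 to 1.12 this count says little about stability. The other 2 were H2-DMb1 at 14 days. It passed with only the arrays of that day in the fit (-1.62, unadjusted p 0.0140 in limma). It also passed with array weights (-1.80, p 0.0401), so that 1 gene and not 0 passed in each. Both values are means of 2 probes, of which 1 was well above background on 17 of 31 arrays. The other probe alone gave -0.65 at 14 days (unadjusted p 0.321 in limma). The sign was opposite to the reported one in 25 of 423 values under alternatives at 2 days, 39 at 7, 8 at 14 and 4 at 21 days. Without 1 array at a time the median difference of the 9 genes lay between -0.80 and 0.35 at 2 days, -0.23 and 0.50 at 7, -0.84 and -0.33 at 14 and -0.93 and -0.07 at 21 days, with no gene past the threshold at any day. With scan day as a block the medians at 2, 7 and 21 days were -0.12, 0.49 and -0.88. With array weights they were -0.42 at 2 days and -0.19 at 7, and the deposited values gave -0.45 at 2 days and quantile normalization -0.39.

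With the replicate number and sex as a block the medians were -0.25, 0.21, -0.59 and -0.48 at 2, 7, 14 and 21 days, and 0 genes passed at each day. The deviations of same-numbered mice correlated at -0.181 to 0.479, above 0.1 in 8 of 15 pairs and not in every pair, so the numbers were not taken as pairs.

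The number of genes lower at 21 than at 2 days (2 as reported) was 4 with quantile normalization and 5 with the deposited values. The number that differed over the days in both treatments (1 as reported) was 2 with normexp background correction and 2 with the deposited values. The remaining checks on arrays were chosen after seeing the data. Without the arrays high in squamous genes, 5 genes were lower at 21 days, 5 differed over the days in both treatments and 4 in CRC + E171. Without those high in acinar genes these counts were 0, 0 and 0, and the count for sex, 1 as reported, was 0. Without those high in neutrophil genes 2 differed over the days in both treatments and 0 between sexes.

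Leaving out 1 array at a time gave 1 to 7 genes lower at 21 days, 0 to 6 that differed over the days in both treatments and 0 to 6 in CRC + E171 (both 6 without CRC + E171 2 days male 2), and 1 to 3 between sexes. Within slides it gave 0 to 4 genes over 2 and 14 days and 0 to 3 over all 4 days. The cause of these shifts was not tested. Normexp moved the median of all genes to 0.12, 0.08, 0.10 and 0.11 at the 4 days, and the deposited values to -0.10 at 21 days. Signal over background limits 1 probe each of H2-DMb1, H2-Ob and Ciita, which were well above background on 17, 20 and 13 of the 31 arrays.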
